A study of Mus musculus with 18 samples.

Results

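The 47 mRNAs described here encode the proteins of the large (60S) subunit of the cytosolic ribosome in mouse. They were taken by gene symbol, from Rpl3 to Rpl41 together with the stalk genes Rplp0, Rplp1 and Rplp2, and their 225 transcript entries were summed per gene, which gave 47 of 47643 genes. All libraries came from purified total RNA of 5G6GR mouse embryonic stem (ES) cells, whose Gata6 transgene product can be switched on by a drug, grown without feeders in serum and leukemia inhibitory factor with puromycin and blasticidin. In 15 libraries 10 pg of diluted RNA was used for RT-RamDA, a reverse transcription in which cDNA strands are displaced and synthesised again from the RNA template, and the library DNA had 17 cycles of PCR. There were 3 libraries for each of 5 reverse transcription primer sets: oligo(dT) alone (dT), which anneals to poly(A) tails, not-so-random primers with oligo(dT) (NSRdT), random hexamers with oligo(dT) (N6dT), not-so-random primers alone (NSR), whose design leaves out sequences that prime on ribosomal RNA (rRNA), and random hexamers alone (N6). The other 3 libraries (bulk) were made from 200 ng of the same kind of RNA by a KAPA kit that depletes rRNA, with 7 cycles of PCR. No genotype, treatment or age separates the groups, and the labels do not tell whether replicate libraries stem from different cultures. Total RNA of one line therefore stands behind every value, and a p-value measures the spread between libraries, which may be technical.

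Ribosomal protein mRNAs are short, abundant and polyadenylated, and their proteins are made in near equal amounts, since ribosomes carry most of them in equal number. The large subunit holds the peptidyl transferase centre, the exit tunnel for the growing chain and the lateral stalk that recruits the translation factors. In ES cells ribosomal protein mRNAs are among the most abundant transcripts. The mouse genome also carries many processed pseudogenes of these genes, so that short reads can match a member and its copies.

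Estimated counts per library ranged from 5333546 to 10234690 after ERCC spike-in entries were left out, and the lowest count of any member in any library was 43, for Rpl22l1. All 8 ES cell markers were detected in all 18 libraries, with a summed level of 1110 to 4760 CPM (counts scaled to the same library total). Bulk replicate 2 stood apart in markers of primitive endoderm, a cell type that ES cells can form: their summed level was 3790 CPM there, 647 and 622 CPM in the other bulk libraries, and 215 to 453 CPM in the RT-RamDA libraries. Counts against bulk are therefore also given without that library. In RNA of a whole culture, fewer cells of a type and less RNA per cell cannot be told apart. Summed levels were 81.5 to 329 CPM for 5 fibroblast markers and at most 10.6 CPM for 5 mesendoderm markers in the RT-RamDA libraries.

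The family took a different share of the library with each primer set. Its share of estimated counts was 3.58%, 3.63% and 3.49% in the dT libraries, 1.33%, 1.34% and 1.35% in the NSRdT libraries, 0.981%, 1.01% and 0.987% in the N6dT libraries, 0.678%, 0.685% and 0.703% in the NSR libraries, 0.537%, 0.535% and 0.538% in the N6 libraries, and 2.78%, 2.63% and 2.77% in the bulk libraries. No library of one group fell within the range of another, and bulk lay between dT alone and the mixtures. The distances between groups changed when rRNA and mitochondrial genes were left out of the total. On that base the share was 4.88% ± 0.0808 with dT, 2.58% ± 0.0433 with NSRdT, 2.67% ± 0.0365 with N6dT, 1.58% ± 0.0248 with NSR, 1.60% ± 0.0176 with N6 and 3.13% ± 0.108 in bulk (SD, n = 3 each). The NSR libraries then lay between 1.55% and 1.60% and the N6 libraries between 1.58% and 1.61%, which overlapped. The 33 small-subunit genes measured beside them had the same order, and the ratio of large-subunit to small-subunit counts was 1.11 ± 0.0132 with dT, 1.15 ± 0.00766 with NSRdT, 1.15 ± 0.0209 with N6dT, 1.35 ± 0.0208 with NSR, 1.28 ± 0.0139 with N6 and 1.22 ± 0.00904 in bulk (SD, n = 3 each).

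**Figure D1:**
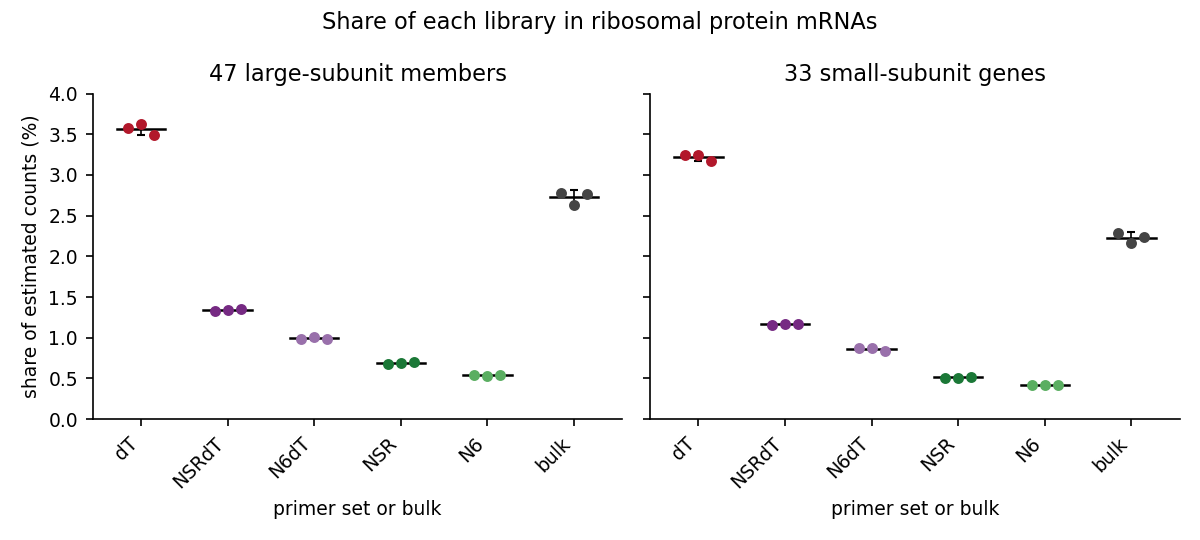
Share of each library's estimated counts (%) in the 47 large-subunit genes (left) and in 33 small-subunit genes (right), by primer set and in bulk; points are libraries, lines are means and bars are SD over 3 libraries. The dT libraries lie at 3.49% to 3.63% for the large subunit, above the bulk libraries at 2.63% to 2.78%, and the libraries made with random primers alone lie at or below 0.703%.

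The first comparison asked how oligo(dT) alone reads these mRNAs relative to random priming, as dT against the mean of NSR and N6. All 47 members rose with dT, by a median of 1.61 on the log2 scale, where over all 15682 genes tested the median was -0.12. Among all genes, 7.54% were called higher and 9.53% lower (edgeR quasi-likelihood test, Benjamini-Hochberg adjusted p under 0.05, n = 3 libraries per primer set). Every member also rose when libraries were scaled by size factors, by library totals or by the ERCC counts, and scaling to the members' own sum, which takes out a shift that they share, left 20 higher and 9 lower. With library totals the member median was 2.54 and that of all genes 0.80, so the difference between both medians was 1.74, against 1.73 with the usual scaling. Of all calls, 44.2% were higher with the usual scaling and 84.1% with library totals.

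The size of the rise ran from 0.59 for Rpl21 to 4.47 for Rpl22l1, and it was larger for shorter transcripts. Over the 47 members, Spearman's rho between the log2 fold change and the length of the main transcript entry (371 bases for Rpl38 to 2045 for Rpl5) was -0.63, and with the coding length (75 bases for Rpl41 to 1257 for Rpl4) it was -0.68. This is a description, since the members share libraries, depth and in part sequence. The 8 members under 500 bases had a median rise of 2.53 and the 12 of 500 to 700 bases one of 2.39, while the 10 of 700 to 900 bases and the 9 of 900 to 1200 bases both had 1.48 and the 8 longest had 0.95. Other protein-coding genes in the same length ranges had medians of 0.85 (33 genes, with a lower quartile of -5.33), 1.72 (62), 1.46 (44), 1.06 (108) and 0.66 (482). These genes had an average level no lower than that of the lowest member, and small-subunit genes were not left out. By median, members lay above the other genes by the widest margin in the shortest range, and by 0.02 in the range of 700 to 900 bases. The 33 other genes of the shortest range spread widely, and their upper quartile of 2.63 was above the member median of 2.53. That margin therefore depends on which genes the range holds. Spearman's rho over the members was -0.09 with base composition (GC content) and 0.12 with the share of 31-base stretches found in other genes. With the level of a member in bulk it was -0.30, so that less abundant members tended to rise more.

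**Figure D2:**
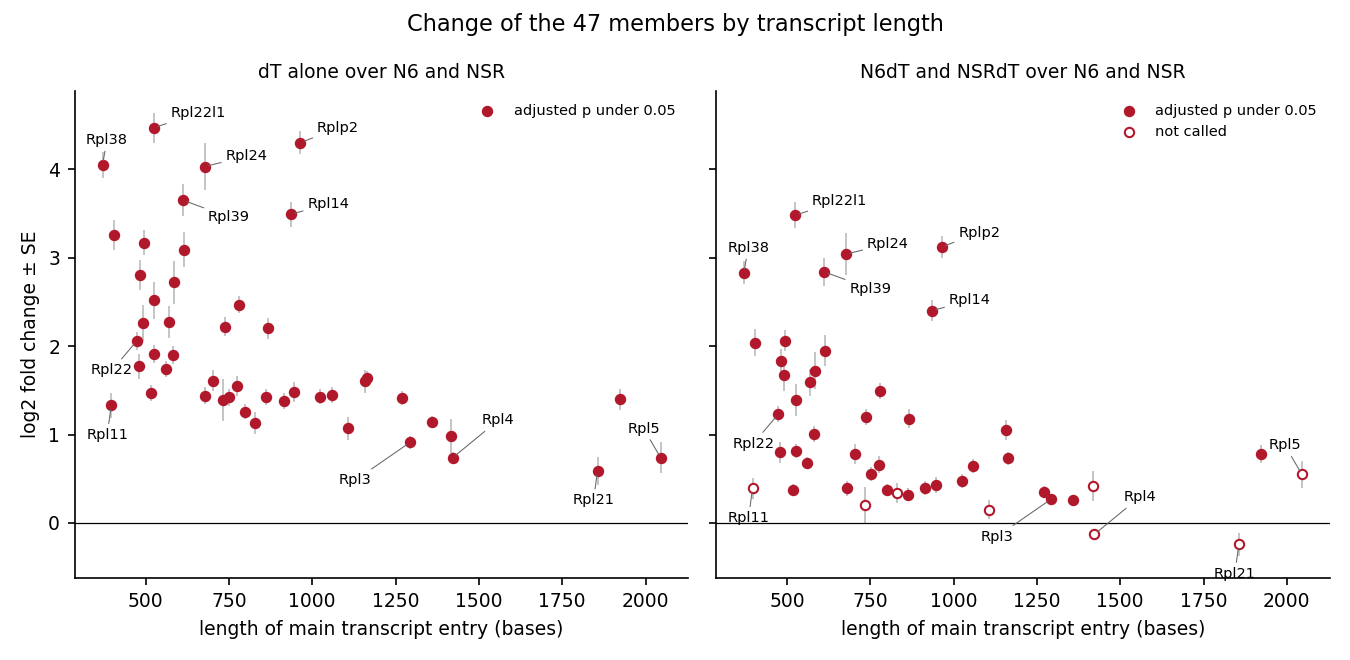
Log2 fold change ± SE of the 47 members against the length of the main transcript entry (bases), for dT alone over NSR and N6 (left) and for NSRdT and N6dT over NSR and N6 (right); filled points are called at an adjusted p under 0.05. On the left all 47 lie above 0, from 0.59 to 4.47, and on the right 8 of 47 are not called, with the usual (TMM) scaling; scaled to the members' own sum, 9 on the left and 12 on the right are lower.

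The proteins of the lateral stalk, which contacts the elongation factors, differed from each other. Rplp0, the base of the stalk, had 958, 1050 and 952 normalised CPM in dT libraries, 463, 465 and 469 in NSR libraries, and 401, 425 and 449 in N6 libraries. The dT libraries were about equal and all above the others, with a log2 fold change of 1.14 ± 0.07 (SE, adjusted p = 8.21e-09). Rplp2, one of the acidic proteins that bind to it as dimers with Rplp1, had 759, 839 and 849 normalised CPM in dT libraries, 44.3, 29.0 and 40.9 in NSR libraries, and 51.1, 46.7 and 36.8 in N6 libraries. Its groups were far apart, and its log2 fold change was 4.30 ± 0.13 (adjusted p = 1.46e-12), the second largest of the family. Rplp1 rose by 3.17 ± 0.14. Per kb of coding sequence, the ratio of Rplp2 to Rplp0 counts was 2.19 to 2.46 with dT, 0.172 to 0.264 with NSR and 0.226 to 0.351 with N6, and bulk lay between them at 1.04 to 1.2. The mixtures gave 1.8 to 1.91 with NSRdT and 1.79 to 1.92 with N6dT, so that they were near dT alone in this ratio. Most Rplp1 sequence is shared with a coding copy, Gm10073, which held 53.7% of the counts of both with dT, 49.7% with NSR and 47.3% with N6, but 0.211% in bulk. Ratios with Rplp1 are therefore uncertain between RT-RamDA and bulk.

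Proteins of the core with long mRNAs had smaller rises. Rpl4, whose extended loop lines the exit tunnel, had 1830, 1890 and 1690 normalised CPM in dT libraries, 1120, 998 and 1040 in NSR libraries, and 1130, 1080 and 1100 in N6 libraries. It rose by 0.74 ± 0.06 (adjusted p = 3.25e-07) and took the most counts of any member in each of the 6 groups. Rpl3, which lies beside the peptidyl transferase centre, had 943, 967 and 1020 normalised CPM in dT libraries, 562, 595 and 583 in NSR libraries, and 475, 493 and 424 in N6 libraries. Its rise was 0.91 ± 0.07 (adjusted p = 1.96e-07). Rpl7a rose by 1.38 ± 0.09.

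Rpl5 and Rpl11, which bind 5S rRNA and, off the ribosome, the p53 regulator Mdm2, have mRNAs with large shares in copies or non-coding entries. Rpl5 had 142, 158 and 109 normalised CPM in dT libraries, 107, 78.8 and 60 in NSR libraries, and 82.8, 87.6 and 71.5 in N6 libraries. The lowest dT library was just above the highest NSR library. Its log2 fold change was 0.74 ± 0.18 (adjusted p = 0.0109), and the call ended without dT replicate 2 (adjusted p = 0.0504). Rpl5 also has a copy, Gm15500, to which 89.1% of the counts of both were assigned with dT, 82.9% with NSR, 84.5% with N6 and 87.4% in bulk. Rpl12, a protein of the stalk base, rose by 0.98 ± 0.20 (adjusted p = 0.00321), and its copy Gm10275 held 89.9% with dT, 88.8% with NSR and 87.2% with N6. Rpl21 had 261, 236 and 257 normalised CPM in dT libraries, 190, 179 and 186 in NSR libraries, and 188, 106 and 154 in N6 libraries, a rise of 0.59 ± 0.16 (adjusted p = 0.0167). Its direction depended on which entries were counted: with its protein-coding entries alone the log2 fold change was -0.03.

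The family holds paralog pairs, and Rpl22 with Rpl22l1 is one of them. Rpl22 binds structured RNAs, and its paralog Rpl22l1 can replace it in the ribosome. Rpl22l1 had 210, 221 and 237 normalised CPM in dT libraries, 8.22, 8.81 and 9.71 in NSR libraries, and 8.42, 12.7 and 12.9 in N6 libraries. It had the largest rise of the family, 4.47 ± 0.17 (adjusted p = 1.25e-11). Rpl22 had 476, 568 and 529 normalised CPM in dT libraries, 93.0, 104 and 99.4 in NSR libraries, and 168, 153 and 153 in N6 libraries, a rise of 2.06 ± 0.10 (adjusted p = 2.6e-10). Per coding kb, the ratio of Rpl22l1 to Rpl22 was 0.412 to 0.474 with dT, 0.345 to 0.428 with NSRdT, 0.374 to 0.449 with N6dT, 0.0893 to 0.103 with NSR, 0.0531 to 0.0887 with N6 and 0.297 to 0.343 in bulk. The ratio was lower in every library made with a random primer alone than in any library with dT or in bulk.

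Rpl36a and Rpl36al encode nearly the same protein from an X-linked gene and an autosomal copy. The first 120 bases of their coding sequences are shown, with the bases that differ in capitals. Within the coding sequences, reads of this pair can be told apart only at such bases. Both are spliced coding sequences from GENCODE vM21 (GRCm38), from the genes at chrX:134585654-134588062 (plus strand) and chr12:69182731-69184083 (minus strand).
Rpl36a: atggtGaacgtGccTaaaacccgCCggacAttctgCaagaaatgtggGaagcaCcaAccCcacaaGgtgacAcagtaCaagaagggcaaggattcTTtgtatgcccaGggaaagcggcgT
Rpl36al: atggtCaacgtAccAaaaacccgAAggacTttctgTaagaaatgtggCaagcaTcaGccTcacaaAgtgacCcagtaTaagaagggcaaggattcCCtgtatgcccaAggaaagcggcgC
Of the whole 321 bases 39 differ (87.9% identity), the longest identical run is 24 bases, and none of the 291 stretches of 31 bases in one occurs in the other (0 shared). Rpl36a had 280, 240 and 210 normalised CPM in dT libraries, 29.7, 19.3 and 29.7 in NSR libraries, and 39.2, 48.4 and 51.6 in N6 libraries, a rise of 2.80 ± 0.17 (adjusted p = 3.03e-09). Rpl36al had 135, 87.8 and 88.8 normalised CPM in dT libraries, 10.4, 11.1 and 9.73 in NSR libraries, and 25.5, 34.9 and 34.1 in N6 libraries, a rise of 2.52 ± 0.21 (adjusted p = 2.23e-07). Both rose by like amounts, and the ratio of Rpl36al to Rpl36a per coding kb was 0.366 to 0.483 with dT and 0.480 to 0.535 in bulk. It was 0.327 to 0.575 with NSR, which overlapped both, and 0.652 to 0.721 with N6, above all the others. Other genes share 87.6% of the 31-base stretches of the Rpl36a main entry and 64.7% of those of Rpl36al. The pseudogene Rpl36a-ps2 held 0% of its and Rpl36a's counts with dT, 3.56% ± 4.12 with NSR, 11.8% ± 10.3 with N6 and 26.3% ± 0.541 in bulk. Ratios of this pair are therefore uncertain between these groups.

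The shortest proteins of the subunit are basic peptides, and their coding sequences are shown because they are the shortest of the family. They are spliced coding sequences from GENCODE vM21 (GRCm38), with the stop codon in capitals, from Rpl41 at chr10:128548114-128549305 (minus strand) and Rpl39 at chrX:37082520-37085402 (minus strand).
Rpl41: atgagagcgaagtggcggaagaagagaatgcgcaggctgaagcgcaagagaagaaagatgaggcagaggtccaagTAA
Rpl39: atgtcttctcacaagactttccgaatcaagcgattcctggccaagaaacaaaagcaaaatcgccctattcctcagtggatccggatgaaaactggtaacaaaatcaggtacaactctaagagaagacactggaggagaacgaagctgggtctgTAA
Rpl41, a peptide at the interface of the subunits, had 509, 489 and 450 normalised CPM in dT libraries, 100, 86.6 and 88.2 in NSR libraries, and 179, 169 and 198 in N6 libraries. It had the shortest coding sequence of the family but a rise of 1.90 ± 0.10 (adjusted p = 6.83e-10), near the middle of the family, on a main entry of 582 bases. Rpl39, a protein of the tunnel exit, had 393, 373 and 419 normalised CPM in dT libraries, 42.8, 33.3 and 19.5 in NSR libraries, and 33.4, 29.3 and 29.6 in N6 libraries. It rose by 3.65 ± 0.18 (adjusted p = 3.03e-10). Rpl38, which in mouse is needed for translation of certain Hox mRNAs, had 365, 334 and 327 normalised CPM in dT libraries, 16.1, 9.63 and 13.0 in NSR libraries, and 32.3, 32.9 and 33.1 in N6 libraries. It rose by 4.05 ± 0.15 (adjusted p = 6.67e-12), and here the NSR libraries were all below the N6 libraries. Across the 6 group means, the genes whose levels were most like those of Rpl41 among 3372 abundant genes were Rps3 (Pearson's r 0.998), the member Rpl36al (0.9943), Psmb3 (0.9917), Hdgfrp2 (0.9907) and Snrpb (0.9892), which is a description over 6 points.

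**Figure D3:**
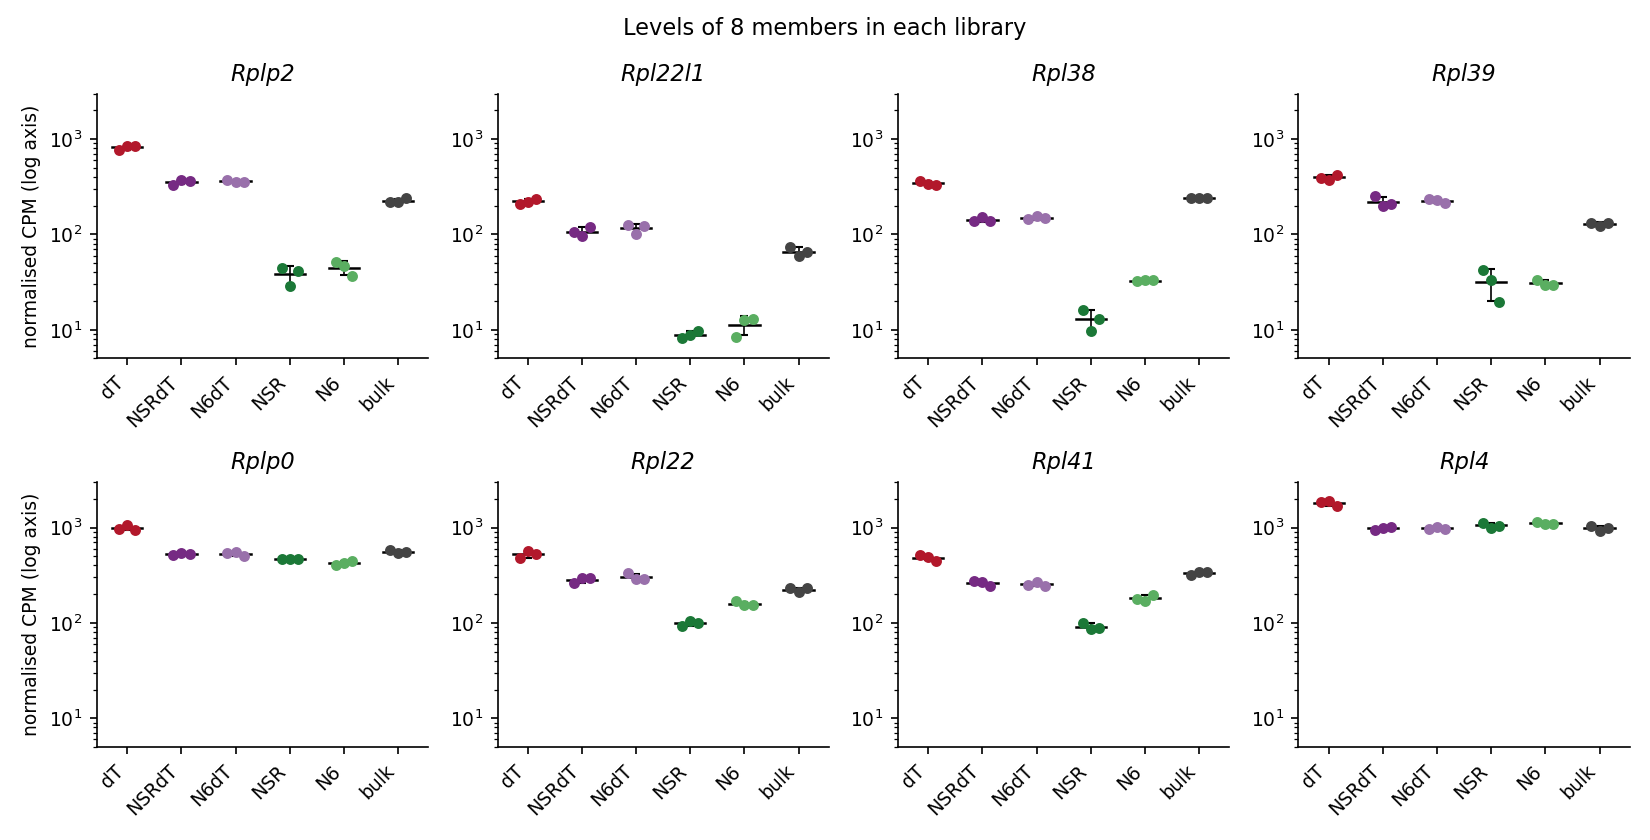
Levels of 8 members in each library as normalised CPM on a log axis, by primer set and in bulk; points are libraries, lines are means and bars are SD over 3 libraries. Rplp2, Rpl22l1, Rpl38 and Rpl39 (top) drop below 55 normalised CPM with NSR or N6 alone, while Rpl4 stays between 929 and 1890 in all 18 libraries.

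The second comparison asked what oligo(dT) does when it is added to a random primer, as the mean of NSRdT and N6dT against that of NSR and N6. Of the members, 39 rose and none fell, where 1.8% of all genes tested were called higher and 0.376% lower (the same fit, adjusted p under 0.05). The member median was 0.78 and that of all genes -0.02. No scaling by totals, size factors or ERCC turned the direction, and scaling to the members' own sum left 20 higher and 12 lower. DESeq2 called 41 members higher and 1 lower, beside 421 higher and 162 lower of 15682 genes. With protein-coding entries alone 38 members were higher and 1 lower, beside 286 higher and 66 lower of 15198 genes. With library totals 94.5% of all calls were higher, against 82.7% with the usual scaling. This comparison shares the NSR and N6 libraries with the first. Rpl22l1 rose by 3.48 ± 0.15, Rplp2 by 3.12 ± 0.12, Rpl24 by 3.04 ± 0.24, Rpl39 by 2.84 ± 0.16 and Rpl38 by 2.83 ± 0.13. Rplp2, for example, had 331, 373 and 367 normalised CPM in NSRdT libraries and 368, 356 and 353 in N6dT libraries, above every library made without dT. Rplp1 rose by 2.06 ± 0.12, Rpl36a by 1.83 ± 0.14, Rpl36al by 1.39 ± 0.18, Rpl22 by 1.23 ± 0.09 and Rpl41 by 1.01 ± 0.09.

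The test on added dT was not passed by 8 members, which included long and abundant mRNAs. Rpl4 had 946, 987 and 1010 normalised CPM in NSRdT libraries and 971, 1020 and 964 in N6dT libraries, within or below the NSR and N6 libraries given above (log2 fold change -0.13 ± 0.05, adjusted p = 0.398). Rpl21 had a log2 fold change of -0.24 ± 0.13 (adjusted p = 0.694), Rpl28 one of 0.15 ± 0.11 (adjusted p = 0.846) and Rpl10a one of 0.34 ± 0.11 (adjusted p = 0.175). Among long members that passed, Rpl3 rose by 0.27 ± 0.06 (adjusted p = 0.0298) and Rplp0 by 0.26 ± 0.06 (adjusted p = 0.0389). The Rplp0 call ended whichever of the 12 libraries was left out (adjusted p up to 0.128), and the Rpl3 call ended without any of them other than N6 replicate 2 (up to 0.0998). Spearman's rho with length was -0.53 over the members, and with their level in bulk it was -0.35. In the shortest range of length the member median was 1.75 and in the longest 0.31, against 0.48 and 0.11 for the other protein-coding genes.

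The third comparison asked whether NSR and N6 differ, over libraries with and without dT. With NSR 3 members fell and none rose, where 0.128% of all genes were called lower and 0.0446% higher (the same fit, adjusted p under 0.05), and the member median was -0.03. Rpl38 fell by 0.70 ± 0.12 on the log2 scale (adjusted p = 0.0213), Rpl11 by 0.62 ± 0.12 (adjusted p = 0.0488) and Rpl41 by 0.47 ± 0.09 (adjusted p = 0.0349). Leaving out single libraries ended these calls: that of Rpl38 ended without any of them other than NSR replicates 1 and 2 (adjusted p up to 0.0967), that of Rpl11 without any other than N6dT replicate 1 (up to 0.203), and that of Rpl41 without any other than NSR replicate 1 (up to 0.157). The member with the lowest value, Rpl36al at -0.83 ± 0.18, was not called (adjusted p = 0.122), and Rpl37 at 0.26 ± 0.10 was the highest. The direction turned with the scaling: with library totals, which also count the rRNA of a library, 20 members were higher and none lower, and the median of all genes was 0.42 against 0.01. Of all calls, 25.9% were higher with the usual scaling and 97.4% with library totals. Over the members, with the usual scaling, Spearman's rho was 0.45 with the main entry's length and 0.26 with the coding length. In the shortest range of length the member median was -0.37 and in the longest 0.04, against -0.40 and -0.02 for the other protein-coding genes.

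Whether the effect of dT depends on the random primer was tested as an interaction, NSRdT over NSR against N6dT over N6. It was called for 2 members, both with a larger rise beside NSR, where 0.0446% of all genes were called in that direction and 0.0191% in the other (the same fit, adjusted p under 0.05). Rpl41 had 274, 271 and 246 normalised CPM in NSRdT libraries against 100, 86.6 and 88.2 in NSR libraries, and 252, 268 and 245 in N6dT libraries against 179, 169 and 198 in N6 libraries. The levels with dT overlapped between both mixtures, while NSR alone was below N6 alone. The interaction was 1.03 ± 0.17 (adjusted p = 0.0387). Rpl14 had 248, 240 and 232 normalised CPM in NSRdT libraries against 28, 26 and 31.2 in NSR libraries, and 225, 218 and 227 in N6dT libraries against 50.2, 81.4 and 72.7 in N6 libraries. Its interaction was 1.36 ± 0.23 (adjusted p = 0.0402). The call of Rpl41 ended without any 1 of the 12 libraries and that of Rpl14 without any other than N6 replicate 1 (both up to an adjusted p of 0.175). Summed with its copy Rpl14-ps1, Rpl14 had an interaction of 0.47 (adjusted p = 0.879), and Rpl41 summed with its copies kept 1.00 (adjusted p = 0.0325).

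Against bulk, random priming alone read the family lower. With NSR 37 members were lower and 2 higher, where 4.65% of all genes were called lower and 4.01% higher, and the member median was -1.31. With N6 36 members were lower and 3 higher, where 3.90% of all genes were called lower and 3.31% higher, and the member median was -1.20 (edgeR quasi-likelihood test on the 6 libraries of each comparison, adjusted p under 0.05). All comparisons with bulk share the bulk libraries, and input, kit, rRNA depletion and PCR cycles differ between the sides, so their parts cannot be told apart. With library totals 46 members were lower with NSR and 47 with N6, and scaling to the members' own sum left 24 lower and 14 higher with NSR and 19 lower and 11 higher with N6. Higher calls made up 46.3% of all calls with NSR and 45.9% with N6 with the usual scaling, and 2.95% and 1.63% with library totals. Without bulk replicate 2, the library with endoderm markers, 34 were lower and 1 higher with NSR, and 32 lower and none higher with N6.

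The lowest members against bulk were of short and middle length. Rpl14 had 28, 26 and 31.2 normalised CPM in NSR libraries and 50.2, 81.4 and 72.7 in N6 libraries, against 577, 498 and 525 in bulk libraries, on a main entry of 935 bases. Its log2 fold change was -4.23 ± 0.12 with NSR, the lowest of the family there, and -2.96 ± 0.18 with N6, and with its copies summed it was -1.37 with NSR and -0.75 with N6. Rpl24 was at -3.34 ± 0.45 with NSR and -2.72 ± 0.16 with N6, and with copies at -0.97 with NSR and 0.25 with N6. Rpl38, with the shortest main entry, had 16.1, 9.63 and 13.0 normalised CPM in NSR libraries and 32.3, 32.9 and 33.1 in N6 libraries, against 238, 238 and 242 in bulk libraries, a log2 fold change of -4.21 ± 0.20 with NSR (adjusted p = 5.74e-05) and -2.86 ± 0.10 with N6 (adjusted p = 1.44e-05). Rpl37a had 18.4, 16.4 and 37.4 normalised CPM in NSR libraries and 21.8, 29.8 and 22.7 in N6 libraries, against 225, 201 and 228 in bulk libraries. Its log2 fold changes were -3.17 ± 0.32 with NSR and -3.13 ± 0.15 with N6, the lowest value of the family with N6, and with copies they were -2.26 with NSR and -2.11 with N6. Rpl36 was at -3.01 ± 0.20 with NSR and -2.55 ± 0.17 with N6, and Rpl22l1 at -2.89 ± 0.18 with NSR and -2.53 ± 0.22 with N6. At the other end, Rpl4 at 0.10 ± 0.08 with NSR and 0.18 ± 0.07 with N6 was not called (adjusted p = 0.533 and 0.215), and Rpl5 was at -0.04 ± 0.22 with NSR and -0.05 ± 0.14 with N6. Spearman's rho between the change and the main entry's length was 0.41 with NSR and 0.21 with N6, and with the coding length it was 0.53 with NSR and 0.45 with N6. By length range, the member median with N6 was lowest at 900 to 1200 bases (-1.65), beside -1.43 under 500 bases, and with NSR it was -1.52 at 900 to 1200 bases and -1.94 under 500 bases.

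The members called higher than bulk with random primers did not hold that place once copies were counted. Rpl10, which joins the subunit late in its maturation, had 353, 317 and 341 normalised CPM in NSR libraries and 329, 359 and 380 in N6 libraries, against 248, 231 and 256 in bulk libraries. It was called higher with NSR (0.47 ± 0.09, adjusted p = 0.0278) and with N6 (0.55 ± 0.09, adjusted p = 0.0164). In bulk 52.7% of the counts of Rpl10 and its coding copy Rpl10-ps3 lay in the copy, and in the NSR and N6 libraries 0%, which for 3 summed libraries allows up to 0.0441% with NSR and 0.0561% with N6. With copies summed the log2 fold change was -0.62 with NSR and -0.53 with N6. Rpl35, a protein of the tunnel exit, was at 1.15 ± 0.11 with NSR and 0.69 ± 0.12 with N6, and with its copies at -0.54 with NSR and -1.03 with N6, where 80.9% of the counts of Rpl35 and its copy Gm2000 in bulk lay in the copy. Rpl11 was at 0.70 ± 0.13 with N6 (adjusted p = 0.0243) and at -0.47 with its copies. Each of these calls with N6, and that of Rpl10 with NSR, ended without any 1 of the bulk libraries (adjusted p up to 0.109 for Rpl10, 0.137 for Rpl35 and 0.135 for Rpl11 with N6, and 0.159 for Rpl10 with NSR).

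With oligo(dT) alone the family was higher than in bulk. Of the members 32 were higher and 4 lower, where 6.90% of all genes were called higher and 11.9% lower, and the member median was 0.70 beside -0.19 for all genes. Rpl35 led at 2.40 ± 0.09, with 342, 345 and 320 normalised CPM in dT libraries against 61.5, 61.9 and 68.5 in bulk libraries, followed by Rpl27 at 2.35 ± 0.22, Rplp2 at 1.86 ± 0.09, Rpl10 at 1.78 ± 0.08 and Rpl22l1 at 1.77 ± 0.12. Rplp2 had 759, 839 and 849 normalised CPM in dT libraries against 221, 219 and 238 in bulk libraries. The 4 lower members were Rpl27a (-0.78 ± 0.08, adjusted p = 0.00299), Rpl28 (-0.60 ± 0.08, adjusted p = 0.00825), Rpl21 (-0.55 ± 0.08, adjusted p = 0.00968) and Rpl31 (-0.47 ± 0.11, adjusted p = 0.0341). With copies summed the leading values were smaller, at 0.92 for Rpl35, 1.11 for Rpl27 and 0.70 for Rpl10, all still called, while Rplp2 was at 1.87 and Rpl22l1 at 1.81. None was then lower and 34 were higher, and Rpl27a, Rpl21 and Rpl31 were then at 0.10, 0.24 and 0.10. Without bulk replicate 1 only 20 were called higher and 1 lower, and without bulk replicate 3 18 higher and 1 lower. Without bulk replicate 2, 25 were higher and 3 lower. With library totals 25 were higher and 7 lower and the median of all genes was -0.45, and with the members' own sum 12 were higher and 12 lower. Higher calls made up 36.7% of all calls with the usual scaling and 21.9% with library totals.

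With the mixtures the family was near bulk, and the members called were split in direction. With NSRdT 6 were higher and 17 lower, where 2.69% of all genes were called higher and 2.58% lower, and with N6dT 9 were higher and 16 lower, where 2.70% were called higher and 2.09% lower. The member median was -0.21 in both. Rpl35 was the highest at 1.28 ± 0.11 with NSRdT and 1.43 ± 0.11 with N6dT, but with copies summed its direction turned, to -0.17 with NSRdT and -0.13 with N6dT (adjusted p = 0.524 and 0.446). Rpl28 was at -1.51 ± 0.16 with NSRdT and -1.51 ± 0.09 with N6dT, the lowest with N6dT. Rpl21 at -1.55 ± 0.08 was the lowest with NSRdT, and with copies it was at -0.77. Rplp2 was called higher in both, at 0.68 ± 0.09 and 0.70 ± 0.08, and so was Rpl39, at 0.79 ± 0.12 and 0.85 ± 0.09, while both were lower than bulk with NSR and N6 alone (Rplp2 at -2.56 ± 0.18 and -2.32 ± 0.15, Rpl39 at -2.01 ± 0.27 and -2.05 ± 0.12). With its pseudogene summed, Rpl39 lost the higher call in both mixtures and was at -0.04 with NSRdT and 0.06 with N6dT (adjusted p = 0.898 and 0.812), where the pseudogene held 21.0% of the counts of both with NSRdT, 23.7% with N6dT and 55.8% in bulk. Rplp2 kept 0.68 with NSRdT and 0.70 with N6dT. Direction in these comparisons depended on scaling: with library totals 39 members were lower and 1 higher with NSRdT and 44 lower and none higher with N6dT, and with the members' own sum 15 were lower and 15 higher with NSRdT and 12 lower and 14 higher with N6dT. The median of all genes with library totals was -0.75 with NSRdT and -1.23 with N6dT, against -1.03 with NSR and -1.39 with N6. Higher calls made up 51.0% of all calls with NSRdT and 56.3% with N6dT with the usual scaling, and 4.57% and 1.60% with library totals. With NSRdT, the number of called members was 15 without bulk replicate 1 or 3, and with N6dT it was 14 without bulk replicate 1, 16 without replicate 2 and 15 without replicate 3. Without bulk replicate 2, 3 were higher and 14 lower with NSRdT and 4 higher and 12 lower with N6dT. Spearman's rho with length was -0.11 with NSRdT and -0.12 with N6dT.

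**Figure D4:**
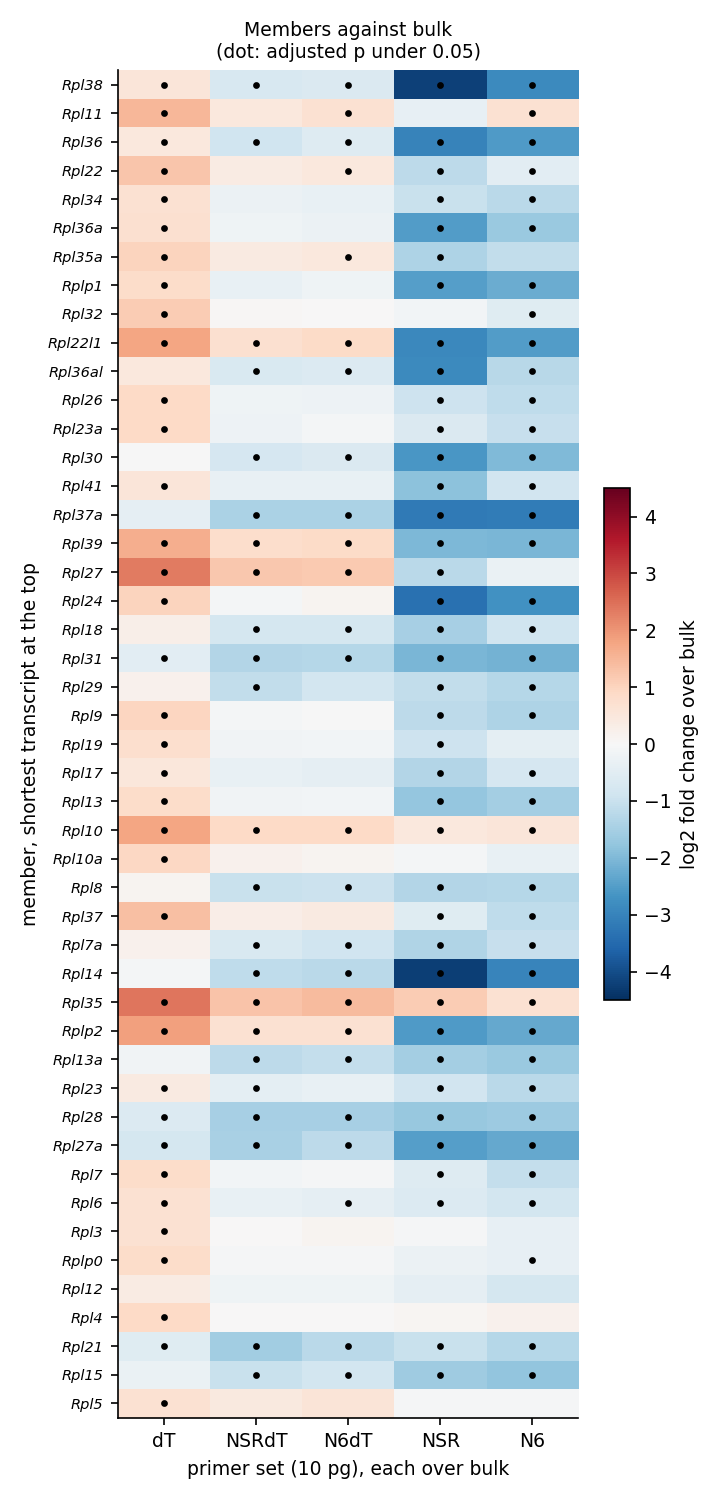
Log2 fold change over bulk of the 47 members, shortest transcript at the top, for each primer set (columns), with the usual (TMM) scaling; a dot marks an adjusted p under 0.05. The dT column is mostly above 0 (32 called higher) and the NSR and N6 columns mostly below (37 and 36 called lower). The mixtures are split, and library totals turn many calls of the mixtures to lower. The members' own sum takes out a shift that they share. On that scale the calls are 12 higher and 12 lower with dT, 14 higher and 24 lower with NSR, and 11 higher and 19 lower with N6.

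Counts were divided differently between members and their copies in different libraries. Genes that share at least 50% of the 31-base stretches of a member, or of their own, held 23.2% of the summed counts of members and copies with dT, 22.4% with NSRdT, 22.4% with N6dT, 24.3% with NSR, 26.0% with N6 and 21.6% in bulk, and 42 of the 47 members had such a copy. With these copies added, all 47 still rose with dT alone over random primers, with a median of 1.66. Rpl24, a protein of a bridge between the subunits, had 555, 583 and 530 normalised CPM in dT libraries, 22.1, 47.8 and 12.3 in NSR libraries, and 33.2, 48.8 and 43.7 in N6 libraries, and it rose by 4.03 ± 0.27. Its copy Gm28037, which shares 70.3% of its 31-base stretches, held 0.274% of the counts of both with dT, 0.962% with NSRdT and 1.36% with N6dT, but 80.7% ± 11.8 with NSR and 87.3% ± 1.27 with N6, and 0.119% in bulk. With its copies summed the rise of Rpl24 with dT alone was 1.37, that with added dT was 0.40, and the change over bulk was 0.25 with N6, where Rpl24 alone was at -2.72 ± 0.16. For Rpl14 the copy Rpl14-ps1 also held more without dT, at 86.2% ± 1.91 with NSR and 78.4% ± 5.28 with N6. Unlike the copy of Rpl24, it held a large share with dT as well. That share was 42.4% ± 2.28 with dT, 42.3% ± 3.6 with NSRdT and 50.9% ± 3.91 with N6dT, against 0.167% in bulk. With copies summed, other leading members had rises of 4.30 for Rplp2, 3.99 for Rpl38, 3.88 for Rpl22l1 and 3.78 for Rpl39.

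Within the family, random primers alone gave the most uneven levels. The SD over members of log2 CPM per kb of main entry was 1.19 ± 0.00835 with dT, 1.13 ± 0.0104 with NSRdT, 1.10 ± 0.0474 with N6dT, 1.51 ± 0.0193 with NSR, 1.35 ± 0.0235 with N6 and 1.16 ± 0.0179 in bulk (SD over 3 libraries). Per kb of coding sequence N6 was nearer bulk, at 1.17 to 1.24 in N6 libraries and 1.08 to 1.13 in bulk libraries. On that base the NSR libraries were at 1.4 to 1.42 and the dT libraries at 1.05 to 1.07. The spread with copies summed was not tested. The 8 members under 500 bases took 12.1% of the family's counts with dT, 11.6% with NSRdT, 12.0% with N6dT, 5.63% with NSR, 8.35% with N6 and 10.3% in bulk. The 8 of 1200 bases or longer took 22.8% with dT, 24.6% with NSRdT, 24.8% with N6dT, 36.9% with NSR, 34.2% with N6 and 23.6% in bulk. The members under 500 bases include Rpl11 by a processed transcript of 397 bases, while its main protein-coding entry has 833 bases. Rpl4 alone took 7.13% ± 0.281 with dT and 6.06% ± 0.0705 in bulk, against 12.8% ± 0.600 with NSR and 13.5% ± 0.485 with N6. As a description, Spearman's correlation of CPM per kb with bulk over the 47 members was 0.784 with dT, 0.752 with NSRdT, 0.744 with N6dT, 0.621 with NSR and 0.687 with N6. Replicates of 10 pg measured the members closely: their median coefficient of variation was 0.0706 with dT, 0.0723 with NSRdT, 0.0577 with N6dT, 0.0834 with NSR, 0.102 with N6 and 0.0524 in bulk. For 3215 other genes the medians were 0.238 with dT, 0.183 with NSRdT, 0.183 with N6dT, 0.196 with NSR, 0.192 with N6 and 0.0651 in bulk. These genes had a mean level of at least that of the lowest member, but they were not matched to the members by level. The least reproducible were Rpl24 with NSR (0.668) and Rpl35a with N6 (0.417).

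**Figure D5:**
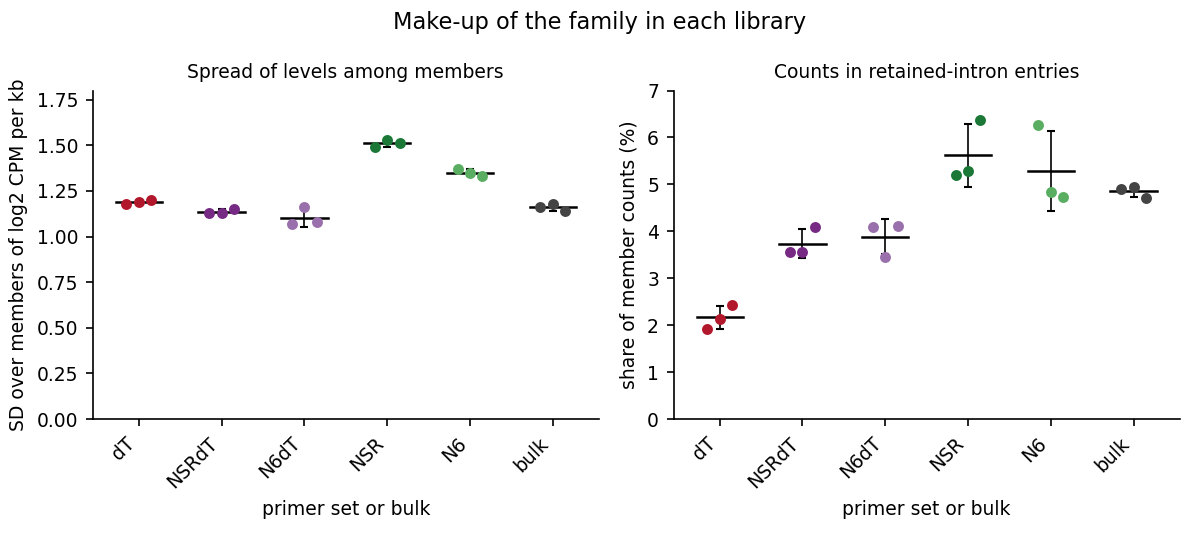
SD over the 47 members of log2 CPM per kb (left) and share of member counts in retained-intron entries in % (right), by primer set and in bulk; points are libraries, lines are means and bars are SD over 3 libraries. The spread is highest with NSR (1.51) and N6 (1.35), and the retained-intron share is lowest with dT (2.17%).

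The kinds of transcript entry behind the family also differed. Of the 225 entries 103 are protein-coding, 78 retain an intron, 36 are other processed transcripts and 8 are targets of nonsense-mediated decay, per the names in the deposited table. Retained-intron entries held 1.93%, 2.14% and 2.43% of the family's counts in dT libraries, 3.55%, 3.57% and 4.10% in NSRdT libraries, 4.10%, 3.45% and 4.12% in N6dT libraries, 5.19%, 5.28% and 6.38% in NSR libraries, 6.27%, 4.84% and 4.74% in N6 libraries, and 4.90%, 4.95% and 4.71% in bulk libraries. The dT libraries were below all others, the mixtures lay between them and the libraries with random primers alone, and N6 overlapped bulk. In Rpl5, the full-length coding entry of 2045 bases held 86.3% of counts with dT, 59.8% with NSRdT, 65.0% with N6dT, 32.3% with NSR, 45.9% with N6 and 57.3% in bulk. In Rplp2, the coding entry of 421 bases held 46.9% with dT, 53.6% with NSRdT and 50.1% with N6dT, against 28.3% with NSR and 27.0% with N6, and 43.7% in bulk.

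Some short entries were assigned no counts, or nearly none, without oligo(dT); they were chosen after their values were seen. The Rpl31 entry of 356 bases held 22.2% of the gene's counts with dT, 15.6% with NSRdT, 16.7% with N6dT, 0% with NSR and with N6, and 27.1% in bulk; a count of 0 allows up to 0.156% with NSR and 0.220% with N6. The Rpl28 entry of 312 bases held 16.5% with dT, 15.1% with NSRdT, 8.67% with N6dT, 0% with NSR (up to 0.145%), 0% with N6 (up to 0.190%), and 12.6% in bulk. A retained-intron entry of Rpl27a of 760 bases held 13.7% with dT, 13.5% with NSRdT, 17.2% with N6dT, 0.00116% with NSR, 0% with N6 (up to 0.252%) and 58.4% in bulk. These limits stand for 3 counts over the libraries of a group and cover counting error only. Rpl11 split RT-RamDA from bulk instead: a processed transcript of 397 bases held 61.1% with dT, 54.2% with NSRdT, 49.0% with N6dT, 62.0% with NSR and 64.6% with N6, against 3.30% in bulk, where the coding entry of 833 bases held 83%. Entries of a gene overlap in sequence, so their shares are estimates of how reads were divided, and strand of counting is not given in the sources used here.

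Small-subunit genes and factors that build the large subunit were counted in the same fits. With dT alone over NSR and N6, all 33 small-subunit genes rose, with a median of 2.01, from 0.97 ± 0.07 for Rps6, a phosphoprotein, to 4.85 ± 0.22 for Rps29, one of the shortest. With added dT 30 of 33 rose and none fell (median 0.95). Of 46 tested factors of 60S assembly, which work in the nucleolus and nucleus and are not part of the ribosome, 4 rose (8.70%) and 3 fell (6.52%) with dT alone (median 0.29), near the 7.54% and 9.53% of all genes, with Rrs1 at 1.37 ± 0.30 (adjusted p = 0.00453) and Mdn1, a giant ATPase with a very long mRNA, at -2.01 ± 0.25 (adjusted p = 2.73e-05). With added dT none of the 46 was called, where 1.8% of all genes were called higher and 0.376% lower. Against bulk, the small-subunit list had 23 lower and 3 higher with NSR and 25 lower and 2 higher with N6. With dT it had 27 higher and 2 lower. Of the 46 assembly factors 1 was lower (2.17%) and 3 higher (6.52%) with NSR, and 1 was lower (2.17%) with N6. With dT 3 of them were higher (6.52%) and 2 lower (4.35%). Among all genes 4.65% were called lower and 4.01% higher with NSR, and 3.90% lower and 3.31% higher with N6. With dT 6.90% of all genes were called higher and 11.9% lower.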

How the data were processed

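RNA of 5G6GR mouse ES cells was measured in 18 libraries (15 of RT-RamDA at 10 pg and 3 of bulk), where the series text counts 12 RT-RamDA samples. The authors' deposited values are taken as estimated counts per transcript entry, since they are partly not whole and not scaled, and the row names give GENCODE transcripts, genes, lengths and entry types. The submitters' processing notes name bcl2fastq 2.16.0.10 and mm10. Aligner, counting tool and strand are not stated in them. Of the entries, 115125 are transcripts and 92 are ERCC spike-in sequences, which were kept out of totals and tests.

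The estimated counts were summed per gene identifier (47643 genes) and rounded to whole numbers. The test was that of edgeR 4.0.16 with R 4.3.3 (TMM, filterByExpr, quasi-likelihood F test, two-sided), adjusted by Benjamini-Hochberg over all genes tested and called at an adjusted p under 0.05. Comparisons among primer sets are contrasts in 1 fit over all 15 RT-RamDA libraries, and comparisons with bulk used 6 libraries each. The fit was tested on simulated counts. Normalised CPM are scaled by TMM over all 18 libraries, while CPM per kb, CPM of markers and shares are of library totals without ERCC. The length of a member is that of its entry with the largest mean count, and the coding length and sequences come from GENCODE vM21. That entry is a processed transcript for Rpl11 (397 bases, 833 for its main protein-coding entry). For Rpl12 it is a retained-intron entry (1417 bases, 1242 for its main protein-coding entry). Copies are genes whose shared 31-base stretches make up at least 50% of a member's or of their own.

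The members and gene lists were chosen with earlier results of these data known. Named members are, per comparison, up to 5 with the highest and 5 with the lowest change, members that did not pass or went against the majority (2 to 4 by level where there are more than 5), the extremes of length, the paralogs and the stalk proteins, and of other lists the 2 highest and 2 lowest called genes. Not all that the rule allows are printed, and the copies were named after their values were seen. Lists of neuroectoderm, mesendoderm, fibroblast and endoderm markers were used to check the libraries. The 5 neuroectoderm markers summed to 24.4 to 168 CPM. Alternatives were size factors, library totals, the members' sum, ERCC sums (added after seeing the data), DESeq2 1.42.0, no filter, coding entries, named pseudogenes, copies (added), a replicate block, only the groups compared, each library left out, and other lengths (coding length added). Tables and figures were made with Python 3.11.15, pandas 2.3.3, numpy 2.4.6, scipy 1.17.1 and matplotlib 3.10.9, and limma 3.58.1 underlies edgeR.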

Additional observations from a re-analysis of the deposited data

Results flagged for a closer look

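The effect of adding oligo(dT) differed between the random primers for 2 members by the test of the interaction itself, NSRdT over NSR against N6dT over N6 (edgeR quasi-likelihood test in the fit of 15 RT-RamDA libraries, 3 per primer set). For Rpl41 the interaction was 1.03 ± 0.17 on the log2 scale (SE, adjusted p = 0.0387), with 1.15 when library totals set the scale, 1.08 with the members' own sum and 1.00 with copies summed. Its call ended with a replicate block (adjusted p = 0.072), in the fit of only the groups compared (0.125), without a filter (0.0708) and without any 1 of the 12 libraries (0.0587 to 0.175). For Rpl14 it was 1.36 ± 0.23 (adjusted p = 0.0402), with 1.48 by library totals and 0.47 when its pseudogene Rpl14-ps1 was summed with it (adjusted p = 0.879). Its call also ended with the block (adjusted p = 0.0826), in the fit of only the groups compared (0.138) and without any 1 library other than N6 replicate 1 (0.0877 to 0.175). In the NSR libraries Rpl14-ps1 held 86.2% ± 1.91 of the counts of both and in the N6 libraries 78.4% ± 5.28, against 42.3% ± 3.6 with NSRdT and 50.9% ± 3.91 with N6dT (SD, n = 3 each). Its part in the result was not tested beyond that sum.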

How the results depend on the processing

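Numbers below are members called, and the cause of each change was not tested. With the members' sum as library size 29 were called for dT alone over random primers, 0 for NSR over N6 and 26 for N6dT over bulk, where the balance turned to 14 higher and 12 lower. With library totals 20 were called for NSR over N6 (all higher, reversed), 44 for N6dT and 40 for NSRdT over bulk. DESeq2 called 8 for NSR over N6 and 12 for the interaction, summing copies gave 7 and 5, the fit of only the groups compared gave 0 and 0, and no filter gave 1 for the interaction. Beside that 0, edgeR gave 965 genes in all at an unadjusted p under 0.05 for NSR over N6 and 769 for the interaction. Leaving out 1 library gave 46 to 47 for dT alone, 34 to 36 for added dT, 0 to 2 for NSR over N6, 0 to 1 for the interaction, and over bulk 19 to 38 with dT, 15 to 25 with NSRdT, 14 to 26 with N6dT, 32 to 40 with NSR and 31 to 42 with N6.

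No sign was found that replicate numbers pair the libraries. Residuals of same-numbered libraries correlated at -0.052 to 0.048 over 45 pairs and 3313 genes, and 3 of 18 libraries were most like one of their own number. A weak pairing could be missed by this check. With a replicate block 47 members were called for dT alone, 37 for added dT, 1 for NSR over N6, 0 for the interaction, and over bulk 25 with dT, 19 with NSRdT, 18 with N6dT, 35 with NSR and 35 with N6.

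Over all genes, dT alone gave 2678 calls, with 5148 by library totals, 5717 by ERCC and 7654 by the members' sum. Added dT gave 341, with 543 by totals, 583 by DESeq2 and 2619 by the members' sum. NSR over N6 gave 27, with 540 by totals, 111 by DESeq2 and 89 without a filter. The interaction gave 10, with 75 by DESeq2, 53 without a filter, 5 with the block and 4 in the fit of only the groups compared. In the order totals, members' sum, DESeq2, no filter and block, N6 over bulk gave 8712, 5876, 2074, 607 and 572 beside 1096, NSR 6102, 5892, 2324, 668 and 584 beside 1336, N6dT 8087, 1391, 1766, 367 and 312 beside 730, and NSRdT 3921, 1732, 1858, 380 and 303 beside 821, while dT gave 706 with the block beside 2957.

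Single members turned in direction as follows. By library totals Rpl4 was at 0.37 for NSR over N6, at -1.19 with N6 and -0.91 with NSR over bulk, Rpl10 at -0.81 with N6 and -0.54 with NSR, Rpl11 at -0.67 and Rpl35 at -0.68 with N6, Rpl39 at -0.35 and Rplp2 at -0.50 with N6dT, and Rplp2 at -0.04 with NSRdT. With protein-coding entries Rpl21 was at -0.03 for dT alone over random primers, Rpl11 at -0.69 with N6 over bulk and Rpl27a at 0.37 with dT over bulk. With named pseudogenes summed Rpl10 was at -0.53 with N6 and -0.62 with NSR, Rpl31 at 0.10 with dT and Rpl39 at -0.04 with NSRdT over bulk, and the copies gave the same values. With copies Rpl11 was also at -0.47, Rpl24 at 0.25 and Rpl35 at -1.03 with N6, Rpl35 at -0.54 with NSR, Rpl21 at 0.24 and Rpl27a at 0.10 with dT, and Rpl35 at -0.13 with N6dT and -0.17 with NSRdT.

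The relation to length moved with how length was taken. With the weighted mean length, the main entry in bulk and the coding length, rho was -0.68, -0.67 and -0.68 for dT alone, and with the last pair -0.60 and -0.63 for added dT. With weighted length, main entry in bulk, coding entries and coding length it was 0.31, 0.34, 0.35 and 0.45 for N6 over bulk, 0.47, 0.52, 0.47 and 0.53 for NSR, -0.07, 0.00, -0.01 and -0.01 for N6dT and -0.06, 0.02, -0.01 and 0.01 for NSRdT, and with the last 3 of these -0.14, -0.13 and -0.11 for dT. Leaving out 1 library gave 0.21 to 0.25 for N6 and 0.39 to 0.41 for NSR. With pseudogenes summed, the share of counts was 3.85% with dT, 1.45% with NSRdT, 1.08% with N6dT, 0.755% with NSR, 0.592% with N6 and 2.99% in bulk, and without rRNA and mitochondrial genes 4.88%, 2.58%, 2.67%, 1.58%, 1.60% and 3.13%.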
